A study of Caenorhabditis elegans with 6 samples.

Results

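The genes described here encode translation initiation and elongation factors of the nematode worm Caenorhabditis elegans. They were chosen by name, as every gene whose symbol begins with eif-, eef-, ife- or ifg- and which has a probe set (the group of array probes that reads one transcript) annotated with that gene alone. The rule found 34 genes, read by 49 probe sets, among 17118 genes on the array, and each gene was represented by its probe set with the highest mean over the 6 arrays. Dim probe sets, under a log2 value of 4 on more than 3 of the 6 arrays, were not tested. This left 31 of the 34 genes, within 9113 genes in all. The other 3, eif-2Bdelta, eif-4A3 and ife-5, are accounted for below.

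The comparison was between 3 Affymetrix arrays of the hlh-30(tm1978) strain, which carries the tm1978 allele of hlh-30, and 3 arrays of the wild-type strain N2. Both strains were kept at 20 degrees Celsius, and no other allele or agent is named in the labels. Each replicate combined whole-animal RNA from embryos and from larvae of the L1 and L2 stages, so a value averages over 3 stages and all tissues. Fewer cells of a type and less RNA per cell cannot be told apart in such samples. HLH-30, the worm relative of mammalian TFEB, is a transcription factor known for its role in autophagy and lysosomal gene expression. The labels do not say whether the mutant was outcrossed or what tm1978 removes.

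Translation starts when initiation factor eIF2, bound to GTP and the initiator tRNA, joins the small ribosomal subunit together with eIF1A and the many-subunit scaffold eIF3. The mRNA is brought in through its 5′ cap by eIF4E and the adaptor eIF4G, and the exchange factor eIF2B recharges eIF2 with GTP for the next round. During elongation eEF1A delivers aminoacyl-tRNAs, eEF1B recharges eEF1A, and eEF2 moves the ribosome along the mRNA. The pathway is a main consumer of energy in growing cells, and eIF4E, eIF2 and eEF2 are its best-known points of control by nutrients and stress. Worms have several eIF4E genes, ife-1 to ife-5, and a single eIF4G gene, ifg-1.

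No translation factor passed the test in either direction. Of the 31 tested, 0 rose and 0 fell at a limma adjusted p under 0.05 over all probe sets tested, where 0.011% of all genes tested rose and 0.132% fell. The lowest limma adjusted p among them was 0.22, for eif-2gamma. At an unadjusted p under 0.05, 5 members were lower in the mutant and 0 higher, beside 6.94% lower and 1.66% higher over all genes. The mutant arrays lay wholly below the N2 arrays for 5 members and wholly above them for 0, where 9.87% of all genes tested were wholly lower and 3.76% wholly higher. Without both arrays numbered 3, described below, again 0 members rose and 0 fell, where 0.296% of all genes rose and 1.94% fell. For 1 gene on 3 arrays against 3, the smallest p of an exact two-sided permutation test is 0.1.

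The differences of the members were small. Their fitted log2 changes, mutant minus N2, ran between −0.46 and 0.36 with a median of −0.042, against −0.010 over all genes tested. After each array was centred on its own median, the members' median was 0.019, against 0.051 over all genes tested. In 30 of the 31 the 95% interval of the change, which is not adjusted for the number of genes, lay within a 2-fold difference either way, as it did for 79.4% of all genes tested. For 24 of the 31 it lay within 1.5-fold, as it did for 4587 of all 9113 genes tested. The members also varied little between arrays of one genotype, with a median within-group SD of 0.12 on the log2 scale, against 0.21 over all genes tested. This was not particular to them. The 61 other translation genes described below had 0.15, and 57 of their intervals lay within 2-fold. For the 29 aminoacyl-tRNA synthetase genes among those it was 0.13, with 29 within 2-fold. Genes of like brightness were compared only with the elongation factors, below.

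**Figure D1:**
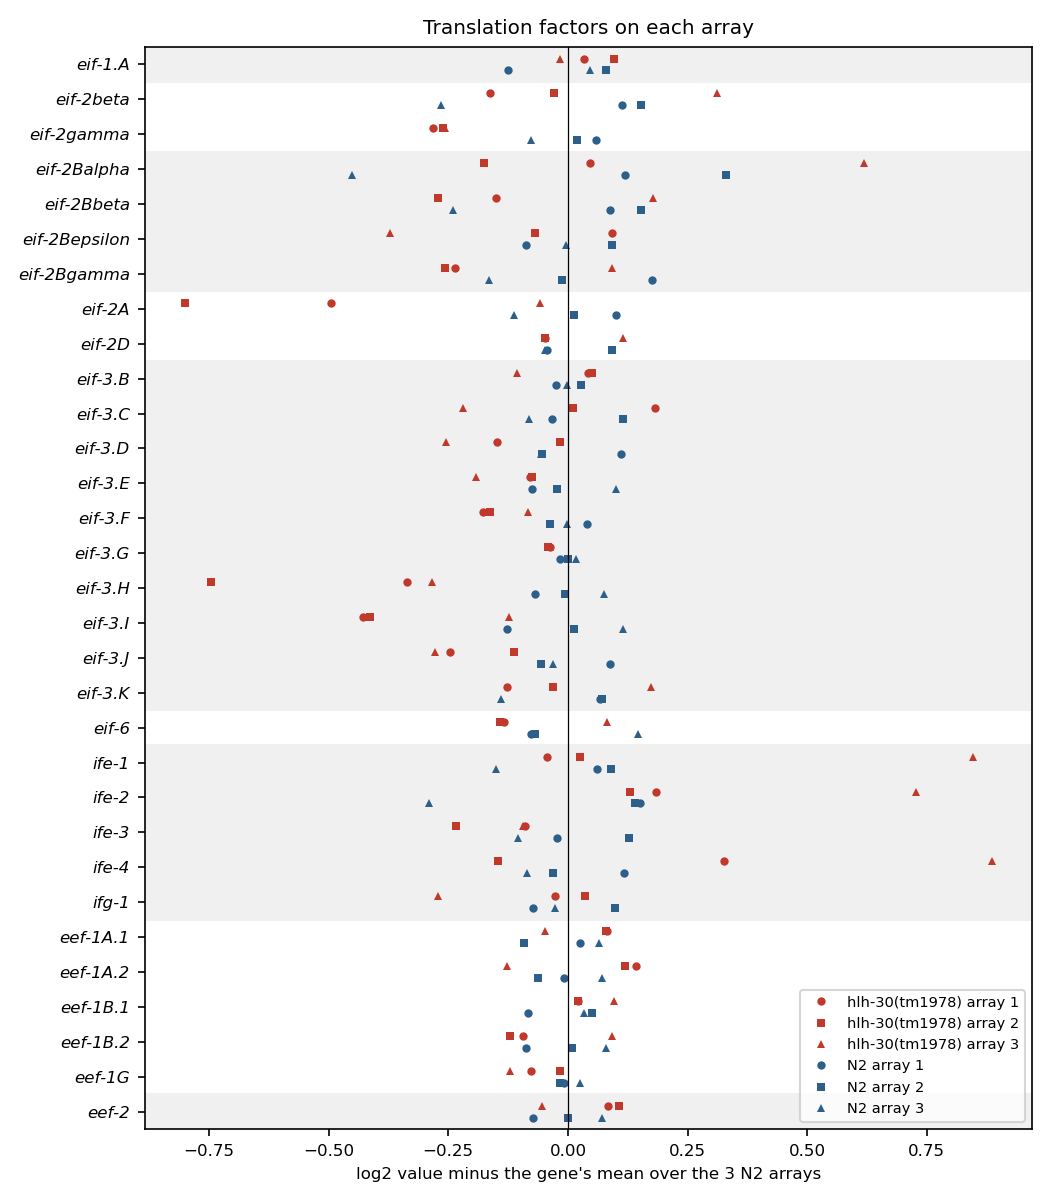
Each of the 31 tested translation factors is a row, and each point is the log2 value of 1 array minus that gene's mean over the 3 N2 arrays (mutant arrays in the upper part of a row, N2 arrays in the lower part). The elongation factors at the bottom stay close to 0 on all arrays, while mutant array 3 lies far to the right for ife-1, ife-2 and ife-4.

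The hlh-30 transcript, read first as a check of the labels, had log2 values of 10.52, 10.65 and 9.66 on the mutant arrays and 12.05, 12.07 and 12.34 on the N2 arrays at its brightest probe set. The genotypes did not overlap there. The fitted change was −1.88 (SE 0.293, limma adjusted p 0.128).

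The arrays numbered 3 stood apart from the others of their genotype. Markers of the early embryo and germline averaged 6.64, 6.73 and 8.38 on mutant arrays 1, 2 and 3, against 7.59, 7.27 and 6.80 on the N2 arrays, over the 13 of 20 listed genes that were tested. The summed linear signal of those 13 ran from 2504 to 11276 in the mutant and from 3106 to 6195 in N2, and glh-2 of the list was at the lowest value on all arrays. Of the 14 body wall muscle markers, all tested, the mean was 13.07, 13.13 and 12.82 in the mutant and 13.40, 13.45 and 13.78 in N2. This list was lower on every mutant array than on every N2 array, with a median change of −0.62, 13 of 14 genes below 0 and 1 called, and its part in the members' values was not tested. The median change was −0.20 for 10 intestine markers (8 below 0), −0.15 for 10 neuron markers (9 below 0) and 0.074 for 8 hypodermis and cuticle markers (2 below 0), with none called in these lists. The hypodermis mean was 0.38 lower on N2 array 3 than on the other N2 arrays. Adult yolk and sperm markers vit-2, vit-5, msp-49 and msp-142 were at the lowest value on every array, while vit-6, the 1 adult marker tested, read 6.01, 6.06 and 5.95 in the mutant and 5.83, 5.72 and 5.83 in N2. Results below that move with the arrays numbered 3 are given with and without both.

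Initiation on eIF2 was read at the beta and gamma subunits of that factor. The gene eif-2gamma, for the GTP-binding subunit, had the smallest p of the members, with 10.89, 10.91 and 10.92 on the mutant arrays, against 11.23, 11.19 and 11.10 on the N2 arrays. The mutant arrays were nearly identical to each other and all lay below N2. Its means were 10.91 ± 0.01 and 11.17 ± 0.07 (SD, n = 3 each), a log2 change of −0.27 (SE 0.0535, 95% interval −0.41 to −0.13), with a limma adjusted p of 0.22. Expressed as a fold, the mutant stood at 0.831 of N2 (95% interval 0.755 to 0.914). Without both arrays numbered 3 the change was −0.31 with a limma adjusted p of 0.0569.

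The companion gene eif-2beta, for the subunit that contacts eIF5 and eIF2B, did not follow it. It read 12.17, 12.31 and 12.65 in the mutant and 12.45, 12.49 and 12.07 in N2, so that mutant array 3 was the highest of the 6 and N2 array 3 the lowest. The fitted change was 0.040 (95% interval −0.42 to 0.50), and −0.23 without both arrays numbered 3.

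Of the 5 genes of eIF2B, the complex that exchanges GDP for GTP on eIF2, 4 were tested. The regulatory subunit gene eif-2Balpha had 7.89, 7.66 and 8.46 in the mutant, against 7.96, 8.17 and 7.39 in N2. For eif-2Bbeta, also regulatory, the values were 9.88, 9.76 and 10.21 in the mutant and 10.12, 10.18 and 9.79 in N2. In both, the arrays numbered 3 carried the highest mutant and the lowest N2 value, and the genotypes overlapped. The gene eif-2Bgamma, whose product sits with epsilon in the catalytic part, showed the same order of arrays, with 10.08, 10.06 and 10.41 in the mutant and 10.49, 10.30 and 10.15 in N2.

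The changes of alpha, beta and gamma were 0.16, −0.082 and −0.13 over all arrays, and −0.29, −0.33 and −0.33 without both arrays numbered 3, with none called either way. The catalytic subunit gene eif-2Bepsilon went the other way on mutant array 3, at 7.67, 7.51 and 7.20 in the mutant and 7.49, 7.67 and 7.57 in N2. Its change was −0.12 (95% interval −0.47 to 0.23) and 0.010 without those arrays. Taking eIF2 and eIF2B together, 5 of the 6 tested genes had both the highest mutant value on mutant array 3 and the lowest N2 value on N2 array 3, an order seen in 26.3% of all genes tested. Among the 5, eif-2gamma met it by a very small margin, with 10.92 on mutant array 3 against 10.91 on mutant array 2. Over all 31 tested members 11 had this order. It was met by 1 of the 10 eIF3 genes, 3 of the 5 cap-binding genes and 0 of the 6 elongation factor genes. The embryo and germline markers showed that order too, and their part in these values was not tested.

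A pair of factors known from other species to handle initiator or other tRNAs outside the usual eIF2 route differed from each other. The gene eif-2A was at 9.30, 9.00 and 9.74 in the mutant and 9.90, 9.81 and 9.68 in N2. Mutant arrays 1 and 2 lay below every N2 array and mutant array 3 among them. Its change of −0.45 (SE 0.204, 95% interval −0.98 to 0.072) had a limma adjusted p of 0.619, and without both arrays numbered 3 it was −0.70 with a limma adjusted p of 0.115. By contrast eif-2D read 7.62, 7.62 and 7.79 in the mutant and 7.63, 7.76 and 7.62 in N2, a change of 0.0065 (95% interval −0.19 to 0.20).

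The naming rule reached 10 genes of eIF3, the scaffold that holds the initiation complex together on the small subunit. These 10, which are not the whole complex, were mostly lower in fitted value, though none passed the test. Over all arrays 9 of the 10 had a change below 0, with a median of −0.13, where 52.3% of all genes tested were below 0. The eIF3 count was 7 of 10 (median −0.10) after quantile normalization and 6 of 10 (median −0.067) after median centring. Without both arrays numbered 3 it was 8 of 10 with a median of −0.13. The median over all genes tested was −0.010 in the main fit. It was 0.023 after quantile normalization, 0.051 after median centring and −0.031 without both arrays numbered 3. The complex was singled out after its values had been seen, so the count is a description.

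Among these, eif-3.H, for a peripheral subunit with an MPN domain, had 7.32, 6.91 and 7.37 in the mutant and 7.59, 7.65 and 7.73 in N2. All mutant arrays lay below all N2 arrays, with mutant array 2 the lowest. The means were 7.20 ± 0.25 and 7.66 ± 0.07 (SD, n = 3 each), a change of −0.46 (SE 0.141, 95% interval −0.82 to −0.093; limma adjusted p 0.429). Its MPN-domain partner eif-3.F read 11.79, 11.81 and 11.89 in the mutant and 12.01, 11.93 and 11.97 in N2, again without overlap, with a change of −0.14 (95% interval −0.27 to −0.011; limma adjusted p 0.507).

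The WD-repeat subunit gene eif-3.I gave 8.53, 8.54 and 8.84 in the mutant and 8.83, 8.97 and 9.07 in N2, and the genotypes met at mutant array 3 and N2 array 1. The change was −0.32 (95% interval −0.62 to −0.024; limma adjusted p 0.507), and −0.36 without both arrays numbered 3. For eif-3.J, a loosely attached subunit that acts near the decoding site, the mutant values were 9.75, 9.89 and 9.72 and the N2 values 10.09, 9.94 and 9.97. These did not overlap, and the change was −0.21 (95% interval −0.40 to −0.028; limma adjusted p 0.472).

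The gene eif-3.G, for an RNA-binding subunit, had the smallest spread of the members, at 11.55, 11.54 and 11.55 in the mutant and 11.57, 11.58 and 11.60 in N2. The arrays did not overlap, yet the change was only −0.040 (95% interval −0.14 to 0.063). For eif-3.D, whose vertebrate counterpart can itself bind the cap of some mRNAs, the values were 12.69, 12.82 and 12.59 in the mutant and 12.95, 12.79 and 12.78 in N2. They overlapped, with a change of −0.14 (95% interval −0.37 to 0.087). The subunit gene eif-3.E read 10.16, 10.17 and 10.05 in the mutant and 10.17, 10.22 and 10.34 in N2. The genotypes met at mutant array 2 and N2 array 1, which held the same value, and the change was −0.12 (95% interval −0.30 to 0.063).

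Genes of 2 subunits at the core of eIF3 lay close to 0 at their brightest probe sets. The gene eif-3.B read 10.72, 10.73 and 10.57 in the mutant, against 10.65, 10.71 and 10.68 in N2, a change of −0.0047 (95% interval −0.16 to 0.15). For eif-3.C the values were 11.68, 11.50 and 11.27 in the mutant and 11.46, 11.61 and 11.41 in N2, a change of −0.0085 (95% interval −0.33 to 0.31). Its other probe set gave −0.13 (95% interval −0.30 to 0.038). The small subunit gene eif-3.K changed by 0.0050 over all arrays and by −0.15 without both arrays numbered 3. Another core subunit, eIF3a, is encoded in the worm by egl-45, which the naming rule does not reach and which was looked up after the other subunits had been seen. It read 11.60, 11.97 and 11.38 in the mutant and 11.71, 11.84 and 11.67 in N2, a change of −0.093 (95% interval −0.52 to 0.33).

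**Figure D2:**
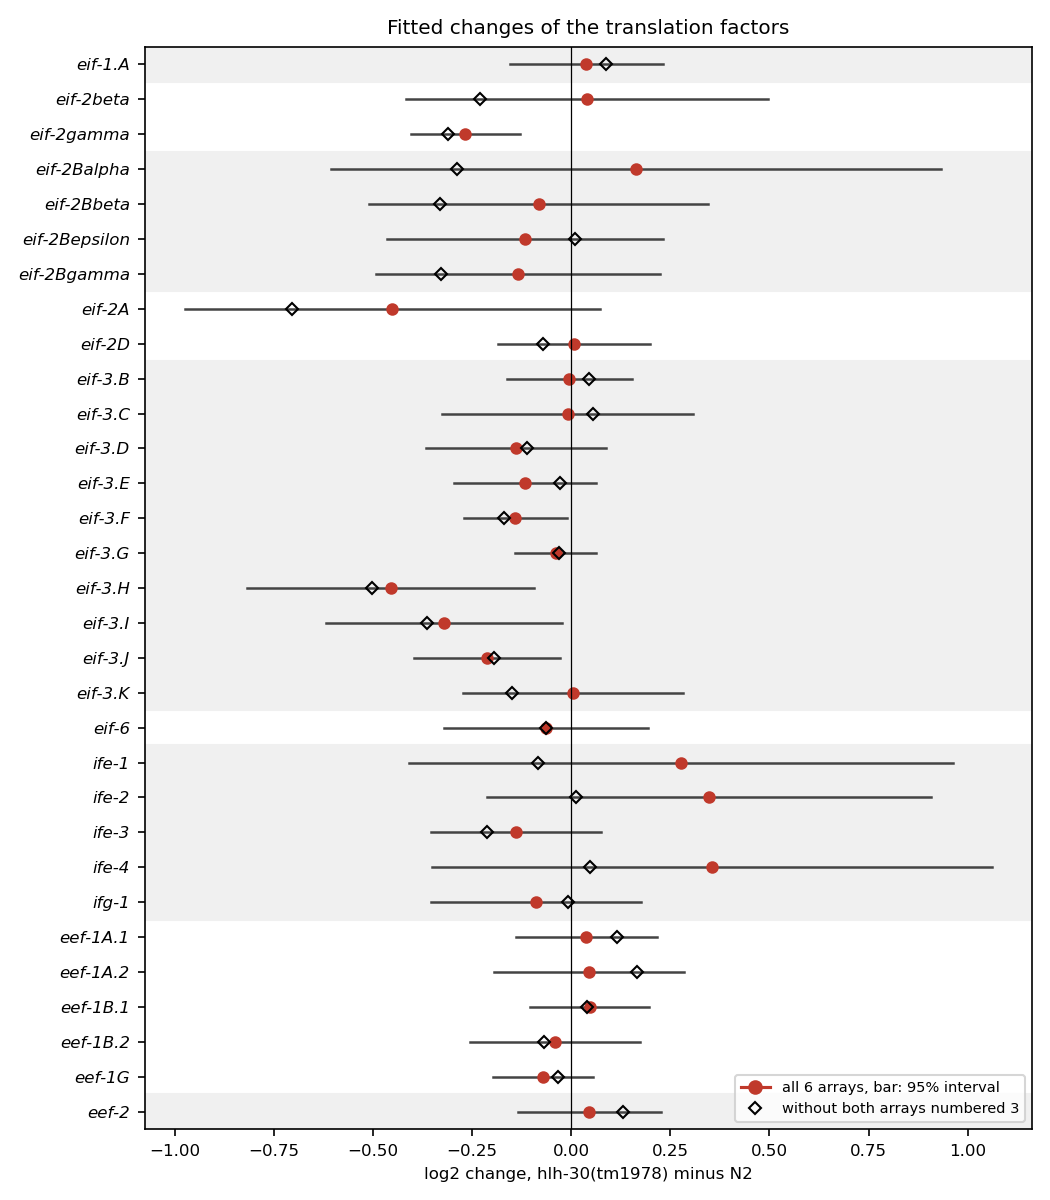
Fitted log2 change of each tested translation factor (filled circle, hlh-30(tm1978) minus N2) with its 95% interval, and the change without both arrays numbered 3 (open diamond). The interval excludes 0 for eif-2gamma, eif-3.F, eif-3.H, eif-3.I and eif-3.J, and the diamond lies farthest from the circle for eif-2Balpha, ife-1, ife-2, ife-4, eif-2beta, eif-2A and eif-2Bbeta.

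Of the other initiation genes, eif-1.A encodes the factor that helps the small subunit scan for the start codon. Its values were 13.53, 13.59 and 13.48 in the mutant and 13.37, 13.57 and 13.54 in N2, with overlap and a change of 0.038 (95% interval −0.16 to 0.23). The gene eif-6, for a factor that keeps the large ribosomal subunit from joining too early, had 10.91, 10.90 and 11.12 in the mutant and 10.96, 10.97 and 11.19 in N2. On both genotypes the third array was the highest, and the change was −0.064 (95% interval −0.32 to 0.19). Its other probe set gave −0.23 (95% interval −0.51 to 0.051).

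A further 2 initiation-family genes gave no measurable signal. The probe set of eif-4A3, for an RNA helicase of the exon junction complex, was at the lowest deposited value of 2.04 on all 6 arrays. That of eif-2Bdelta stood at 3.39 on all 6 arrays. Such values carry no information on a difference between the genotypes.

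The cap-binding genes held the widest spread of the group, with a median within-group SD of 0.29 over the 5 tested, against 0.13 over the eif genes and 0.079 over the eef genes. The gene ife-1 encodes an eIF4E of the germline that associates with P granules. It read 11.57, 11.64 and 12.46 on the mutant arrays and 11.67, 11.70 and 11.46 on the N2 arrays. Mutant array 3 was 0.86 above the mean of the other mutant arrays, and the remaining 5 arrays lay close together. The change of 0.28 (SE 0.267, 95% interval −0.41 to 0.96; limma adjusted p 0.789) turned to −0.084 without both arrays numbered 3.

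The same array was highest for ife-2, an eIF4E known from the soma, whose loss lengthens life span in worms. It had 10.60, 10.55 and 11.15 in the mutant and 10.57, 10.56 and 10.13 in N2, so arrays 1 and 2 of both genotypes were almost equal. Its change was 0.35 (SE 0.218, 95% interval −0.21 to 0.91; limma adjusted p 0.711), and 0.011 without both arrays numbered 3.

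For ife-4, an eIF4E of neurons and muscle that serves a subset of mRNAs, the mutant arrays read 10.16, 9.69 and 10.72 and the N2 arrays 9.96, 9.81 and 9.75. Mutant arrays were both the highest and the lowest of the 6. It was the only tested member whose 95% interval reached past a 2-fold difference, with a change of 0.36 (SE 0.275, 95% interval −0.35 to 1.06; limma adjusted p 0.754), and 0.047 without both arrays numbered 3. The median change of the cap-binding genes was therefore 0.28 over all arrays and −0.0090 without that pair. The embryo and germline markers were 1.70 higher on mutant array 3 than on the other mutant arrays and N2 array 3 lay 0.63 under the other N2 arrays for them, and their part in the ife values was not tested.

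At their brightest probe sets the remaining cap-binding genes did not have their highest value on mutant array 3. The gene ife-3, for the eIF4E most like that of mammals, had 10.10, 9.95 and 10.09 in the mutant and 10.16, 10.31 and 10.08 in N2. The groups overlapped at N2 array 3, and the change was −0.14 (95% interval −0.35 to 0.076). A dimmer probe set of ife-3 did show the order seen in ife-1 and ife-2, with 8.86, 8.72 and 9.22 in the mutant and 9.19, 9.11 and 8.72 in N2, a change of −0.071 (95% interval −0.55 to 0.41). The eIF4G gene ifg-1 read 11.20, 11.26 and 10.96 in the mutant and 11.15, 11.33 and 11.20 in N2, with mutant array 3 the lowest. The change was −0.088 (95% interval −0.35 to 0.18). The fifth eIF4E gene, ife-5, was at the lowest value of 2.04 on all 6 arrays.

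**Figure D3:**
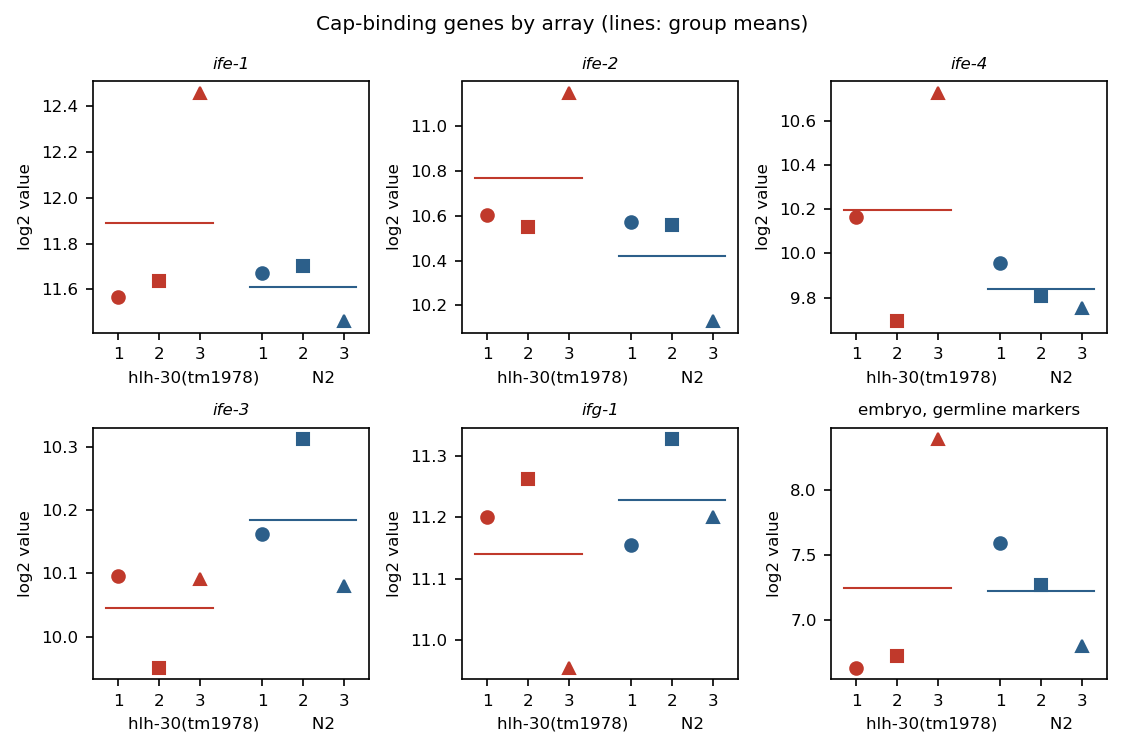
Log2 values of 5 cap-binding genes, and the mean log2 value of 13 early embryo and germline markers, on the 3 hlh-30(tm1978) arrays (left) and the 3 N2 arrays (right), with lines at the group means. The axes do not start at 0. The highest point of ife-1, ife-2, ife-4 and the markers is mutant array 3.

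The elongation factors varied little, with a median within-group SD of 0.079. All 6 intervals lay inside 1.5-fold, as did those of 4587 of all 9113 genes tested. Their values, 12.99 to 16.22, lay in the upper part of the range, where the highest value on any array was 16.95, and the part of signal saturation in this small spread was not tested. The 447 other genes at least as bright on average as the dimmest elongation factor gene had a median within-group SD of 0.13. The median change of the elongation factors was 0.042, against −0.010 over all genes tested. After quantile normalization it was −0.0026, against 0.023 over all genes tested. The genes eef-1A.1 and eef-1A.2 encode near-identical forms of eEF1A, the carrier of aminoacyl-tRNA, so their probe sets may read both. At eef-1A.1 the mutant arrays had 16.22, 16.22 and 16.09 and the N2 arrays 16.17, 16.05 and 16.21, a change of 0.038 (95% interval −0.14 to 0.22). At eef-1A.2 they had 14.72, 14.70 and 14.46 against 14.57, 14.52 and 14.65 in N2, a change of 0.045 (95% interval −0.19 to 0.28). The dimmest eef-1A.2 probe set, far from the top of the range, had 7.92, 7.87 and 7.77 in the mutant and 7.63, 7.55 and 7.86 in N2, a change of 0.17 (95% interval −0.081 to 0.42).

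The genes of the eEF1B complex, which reloads eEF1A with GTP, overlapped between genotypes as well. The exchange subunit gene eef-1B.1 read 14.79, 14.79 and 14.87 in the mutant and 14.69, 14.82 and 14.81 in N2, a change of 0.046 (95% interval −0.10 to 0.20). Its companion eef-1B.2 had 13.02, 12.99 and 13.20 in the mutant and 13.03, 13.12 and 13.19 in N2, a change of −0.042 (95% interval −0.26 to 0.17). In eef-1B.2 array 3 was the highest of its genotype in both. The structural subunit gene eef-1G read 14.66, 14.72 and 14.61 in the mutant and 14.72, 14.72 and 14.76 in N2, a change of −0.071 (95% interval −0.20 to 0.054). The translocase gene eef-2 had 15.70, 15.72 and 15.56 in the mutant and 15.54, 15.61 and 15.68 in N2. Mutant arrays 1 and 2 were the highest of the 6, and the change was 0.046 (95% interval −0.13 to 0.23). In 0 of the 6 elongation genes was N2 array 3 the lowest N2 array, against 14 of all 31 tested members and 46.3% of all genes tested.

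Of the 31 tested genes, 13 were read by more than 1 tested probe set, and in 11 of them all their probe sets had a change of the same sign. The exceptions, eef-2 and eif-1.A, were near 0 at each probe set. The probe sets of eif-3.D gave −0.14 at both, and those of eif-3.I gave −0.32 and −0.27. The second probe set of eif-3.F read −0.045 (95% interval −0.17 to 0.078), with overlap, so the separation seen at its brighter probe set was not found there. The widest gap was in ifg-1. Its dimmer probe set had 6.53, 6.93 and 6.64 in the mutant and 6.93, 7.31 and 7.16 in N2, a change of −0.43 (95% interval −0.82 to −0.047; limma adjusted p 0.483), against −0.088 at the brighter one. The annotation used here does not say which part of ifg-1 each one reads.

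**Figure D4:**
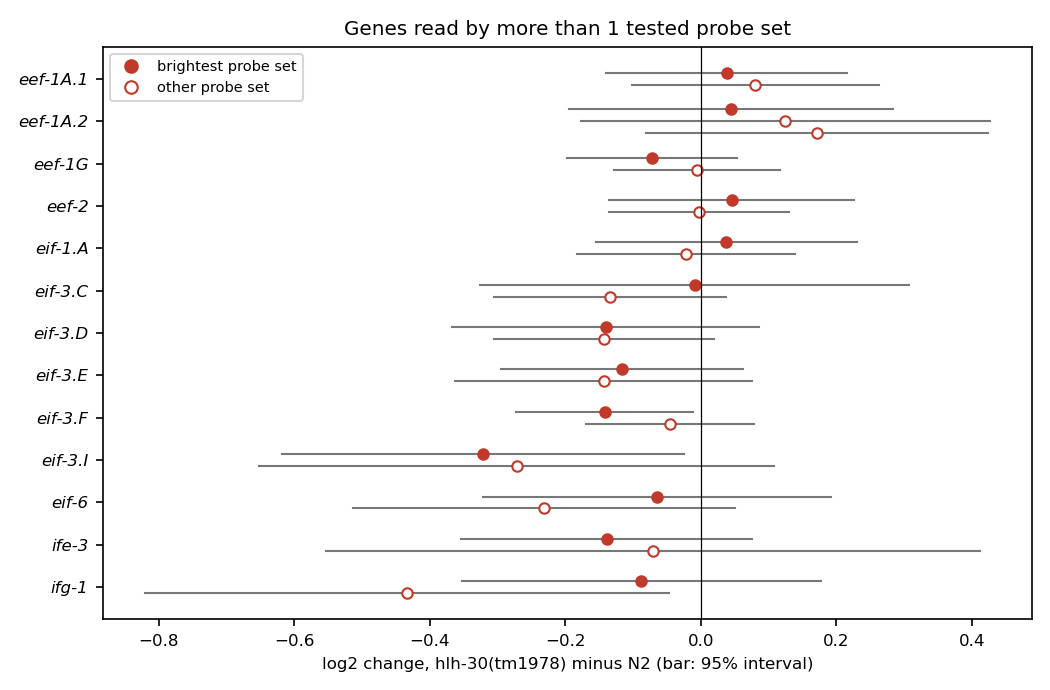
Log2 change (hlh-30(tm1978) minus N2) with its 95% interval at each tested probe set of the 13 genes that have more than 1, the brightest filled. The probe sets of a gene mostly lie close together, and those of ifg-1 are the farthest apart.

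Other genes of translation, listed from general knowledge under their older and newer names, gave 61 tested genes of 68 on the array. One of them, eftu-2, had been listed for its name and encodes a GTPase of the spliceosome. Of the 61, 0 rose and 0 fell by limma at an adjusted p under 0.05, and at an unadjusted p under 0.05 there were 0 higher and 6 lower. Over all genes tested, 0.011% rose and 0.132% fell, and 1.66% were higher and 6.94% lower at that unadjusted p. The median change of the 61 was −0.11, with 51 of them below 0, against 52.3% of all genes tested. That count was 46 (median −0.070) after quantile normalization and 42 (median −0.047) after median centring. For all genes tested the median was then 0.023 and 0.051, against −0.010 in the main fit. By role, 20 of 29 aminoacyl-tRNA synthetase genes, which charge tRNAs, were below 0. So were 5 of 5 genes of termination and recycling and 5 of 5 of the poly(A)- and cap-binding group. In a mixed eIF2 kinase group, pek-1, gcn-1, gcn-2, gsp-1 and atf-4, 5 of 5 were below 0. Not all of these encode kinases or kinase regulators. The list of initiation and elongation factors under other names had 12 of 13 below 0. It also holds efk-1, ifet-1 and eftu-2, which are not themselves such factors. Genes of the TOR pathway, which controls translation by nutrients, had 4 of 4 below 0 (let-363, daf-15, rheb-1 and raga-1). Without both arrays numbered 3 the termination, poly(A)- and cap-binding and eIF2 kinase groups had 5, 2 and 3 below 0.

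The 4 of these genes with the smallest p were all lower on every mutant array, which picking by smallest p favours. Of the 61, 10 were wholly lower in the mutant and 1 wholly higher. Over all genes tested, 9.87% were wholly lower and 3.76% wholly higher. The gene pek-1 encodes the worm PERK, the kinase that phosphorylates eIF2alpha during stress of the endoplasmic reticulum. It read 7.90, 7.85 and 7.88 in the mutant and 8.94, 8.75 and 8.57 in N2, a clear gap with little spread among mutant arrays. The change was −0.88 (SE 0.105, 95% interval −1.15 to −0.61; limma adjusted p 0.0816), and −0.98 without both arrays numbered 3 (limma adjusted p 0.0569). The gene efk-1, for the kinase that inhibits eEF2, had 9.08, 8.83 and 8.76 in the mutant and 9.59, 9.42 and 9.36 in N2, a change of −0.57 (SE 0.113; limma adjusted p 0.22).

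The lysyl-tRNA synthetase gene kars-1 was at 11.62, 11.69 and 11.78 in the mutant and 12.13, 12.04 and 12.25 in N2, a change of −0.45 (SE 0.0767; limma adjusted p 0.16). The eIF5A gene iff-2 read 14.36, 14.37 and 14.23 in the mutant and 14.52, 14.45 and 14.50 in N2, a change of −0.17 (SE 0.0591; limma adjusted p 0.489). It was not lower at another probe set, given with the other settings at the end. Its germline counterpart iff-1, singled out after its values were seen, followed the arrays numbered 3 with 12.20, 12.23 and 13.97 in the mutant and 12.89, 12.86 and 11.82 in N2. The change of iff-1 was 0.28 over all arrays and −0.66 without both arrays numbered 3, where it was called (limma adjusted p 0.042).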

How the data were processed

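The values are on the log2 scale as the authors deposited them, with 1 value for each probe set on each array. They were made with GCRMA (background correction from probe sequence, then normalization) and limma, per the submitters' processing notes, which name no version or setting. The lowest value, 2.04, acts as a floor, and in 42.0% of tested probe sets at least 2 arrays share an identical value. Detection calls and scan dates were not used here.

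Genotypes come from sample titles. The fit was limma 3.58.1 in R 4.3.3 (lmFit, eBayes, mutant minus N2, no covariate), on 12060 of 22625 probe sets after leaving out 77 controls, with Benjamini-Hochberg adjustment over them. It was tested on simulated data. Intervals are limma's, at 95%. The number of arrays limits precision. Gene names come from the platform annotation, and 0 of the 34 symbols differ in RefSeq. Beyond picking the brightest probe set of a gene and placing the elongation factors by brightness, levels of different probe sets were not compared.

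The members and lists were chosen with earlier results of these data known. By rule, values on every array were given for called members, the 12 with the smallest p, the ife, ifg and eef genes and the brightest eif gene of each complex, and some others were added after their values were seen. No set test was run. For a member whose interval includes 0, an alternative was judged by size only, against 1 SE. The sequences of these genes were not used here.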

Additional observations from a re-analysis of the deposited data

How the results depend on the processing

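Under the 18 other settings, no translation factor was called except with array quality weights. There 4 fell: eif-2gamma by 0.31, eif-3.I by 0.38, eif-3.F by 0.17 and eif-2A by 0.59 on the log2 scale, as did 4 of the other translation genes, beside 1.56% of all genes higher and 4.91% lower. The weights ran from 0.119 on mutant array 3 to 6.76 on mutant array 1. With weights the medians were −0.066 for the members, −0.16 for the eif genes and −0.030 for the cap-binding genes, and hlh-30 fell by 1.55 (limma adjusted p 0.0065). Without both arrays numbered 3 they were −0.068, −0.16 and −0.0090, 0.296% of genes were higher and 1.94% lower, 1 other translation gene fell, and hlh-30 fell by 1.47 (limma adjusted p 0.042). Quantile normalization gave −0.021 for the members, −0.044 for eif and −0.10 for eIF3 genes, with 0.0219% of genes higher. Median centring gave 0.019, −0.038 and −0.067, and 0.10 for eef genes. The median over all genes tested was −0.010 in the main fit, 0.023 after quantile normalization and 0.051 after median centring. Leaving out each array in turn gave 0 to 0.011% of genes higher and 0 to 0.0219% lower, with 0 members and 0 other translation genes called. The medians then ran from −0.064 to −0.026 for the members, −0.11 to −0.055 for eif, −0.14 to −0.081 for eIF3 and 0.0042 to 0.40 for cap-binding genes, the lowest of the last without mutant array 3. With no filter 0% of genes were higher and 0.0058% lower, and with a trended, robust variance 0.0878% were lower. With the mean of all probe sets 0.307% were lower, and with plainly named probe sets the eIF3 median was −0.18 and iff-2 read 0.017 at another probe set. At an adjusted p under 0.10, 0.0439% of genes were higher and 0.593% lower, with 1 of the other translation genes, pek-1. With the replicate number as a block, 0% of genes were higher and 0% lower, and 0 members were called. Same-numbered arrays did not deviate together (r −0.41, −0.42 and −0.52 across probe sets). Deviations within a genotype are not independent, and the arrays numbered 3 stood apart in opposite directions for the embryo and germline markers. These values therefore cannot tell whether the numbers pair the samples. Of the 31 tested members, 15 had a change of the same sign under every setting that gave one and 16 did not. Except where fewer probe sets or arrays enter by construction, the cause was not tested. The number of arrays limits how small a change can be told from 0.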
